A study of Mus musculus with 9 samples.

Results

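The cytosolic ribosomal protein genes are the genes for the proteins of the ribosomes that work in the cytoplasm. They were chosen by symbol: names that begin with Rpl or Rps followed by a number, together with Rplp0, Rplp1, Rplp2 and Rpsa, without pseudogene names and without the Rps6k kinases. This rule gave 84 of the 25526 gene names in the table, 32 of the small (40S) subunit and 52 of the large (60S) subunit. Of these, 77 are the main genes of the ribosome and 7 are extra copies (paralogs) named for a main gene: Rps27l, Rpl22l1, Rpl3l, Rpl39l, Rpl7l1, Rpl36al and Rpl10l. All 84 are protein-coding genes in GENCODE vM21 (GRCm38), spread over 19 chromosomes, with 14 of them on chromosome 7. Fau and Rack1, whose products are also part of the ribosome, fall outside the name rule and were counted with a list of other translation genes.

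The values came from RNA sequencing of whole mouse lung, with 3 mice in each of 3 groups. These were normal lungs, lungs of a pulmonary fibrosis model, and lungs of animals treated with PepNzymeSOD-CAT, called nanozyme lungs below. Nanozymes are synthetic catalysts that imitate enzymes, and the name refers to superoxide dismutase and catalase. The agent that induced fibrosis, the dose and timing of the nanozyme, and the strain, age and sex of the mice are not given in the sources used here. The study addressed how the nanozyme acts in pulmonary fibrosis, but the sample labels themselves do not state whether the nanozyme mice also received the model's inducer. Each value is an FPKM, a fragment number scaled to transcript length and to the fragments mapped in the library, so levels can be set side by side between genes.

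A ribosome holds a single copy of nearly every ribosomal protein, and cells make these proteins in near equal amounts. Their messages are among the most abundant of the cell, and most begin with a short run of pyrimidines (C and T in the DNA), the terminal oligopyrimidine or TOP tract. Through that tract the mTORC1 kinase and the protein LARP1 set how strongly the messages are translated and how stable they are, so the level of a message is only part of the control. Ribosomal proteins are expressed in every cell of the lung.

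The region around the transcription start is shown for 6 members because it is where a TOP tract would lie. RefSeq (GRCm38.p6) gave a window of 250 bases before to 50 bases after the start for 64 of the 84 members. Each line prints 30 bases, 15 of them before the annotated start, and capitals mark a run of at least 8 C or T that begins with C within 20 bases of the start. Rps2 and Rpl28 are shown as the members that changed between groups, Rps18 as one of the members with the most even level relative to the rest, Rps27 and Rps27l as a main gene and its paralog, and Rps21 as a member that lay low in the model group.
Rps2, chr17:24720048-24720077, plus strand: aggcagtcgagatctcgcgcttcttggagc
Rpl28, chr7:4792950-4792979, plus strand: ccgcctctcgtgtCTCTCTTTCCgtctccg
Rps18, chr17:33955651-33955680, minus strand: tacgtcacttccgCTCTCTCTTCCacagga
Rps27, chr3:90213634-90213663, minus strand: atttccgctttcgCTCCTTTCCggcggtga
Rps27l, chr9:66946071-66946100, plus strand: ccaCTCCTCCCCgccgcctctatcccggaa
Rps21, chr2:180257364-180257393, plus strand: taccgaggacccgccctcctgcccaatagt

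Such a run was present in 31 of the 64 members (48.4%), against 15.7% of the 27025 genes with a window. Rpl28, Rps18, Rps27 and Rps27l hold it and Rps2 and Rps21 do not, and no match says only that these letters are not in the searched bases. The letters CCGGAAG, the core bound by ETS factors, were found on either strand of the 300-base window in 26 members (40.6%) against 9.93% of all genes. The letters AAGATGGC, bound by YY1, were found on either strand in 6 members (9.38%) against 3.19%. The 31 tested members with a run and the 30 tested members with a window but no run had similar median log2 changes, 0.09 and 0.08 for model against normal, 0.25 and 0.22 for nanozyme against model, and 0.32 and 0.28 for nanozyme against normal.

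Some facts of the libraries bear on these genes. Summed FPKM ran from 443746 to 519772 per library, and read depth is unknown because the table holds no counts. Model replicate 2 stood apart: its level was the highest of the 3 model libraries in 81 of 81 tested members, against 28.9% of all tested genes. In that library the members lay at a median of 1.53 times the mean of the other model libraries (range 1.06 to 3.01), while the median over all tested genes was 0.92. Model replicate 2 was also the highest of all 9 libraries for 52 members, and model replicate 3 was the lowest for 45. Nanozyme replicate 2 stood apart over cell markers: its summed neutrophil markers reached 6976 FPKM, near the 6510 to 8868 of the model libraries, while nanozyme replicates 1 and 3 had 1401 and 1852 and normal libraries 118 to 122. The nanozyme libraries carry names numbered apart from the other libraries, so a separate batch and the treatment cannot be told apart. Counts of called members are given with all libraries and without model replicate 2, and those against the nanozyme also without nanozyme replicate 2. For the other gene lists the counts without these libraries come last.

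Ribosomal protein messages were abundant in every library. Of the 84 members, 69 were among the 300 most abundant genes of the table. The mean FPKM of the 77 main genes ran from 61.1 for Rps15a to 1276 for Rplp1, an acidic protein of the stalk that recruits elongation factors. With a requirement of at least 1 FPKM in at least 3 of the 9 libraries, 81 members were tested, and Rpl3l, Rpl10l and Rpl39l were not. Over the 9 libraries the highest value of a tested member was typically 1.77 times its lowest, and 60 of 81 members stayed under 2 times.

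The share of all FPKM that the members held was highest in the nanozyme group. It was 6.30%, 6.93% and 6.51% in normal replicates 1 to 3, 6.67%, 8.85% and 6.46% in the model replicates, and 8.63%, 7.90% and 8.81% in the nanozyme replicates. The group means were 6.58% ± 0.321, 7.33% ± 1.32 and 8.44% ± 0.481 (SD, n = 3 mice each). All nanozyme libraries lay above all normal libraries, whereas the model group spanned both, with replicates 1 and 3 at the normal level and replicate 2 above every other library. The small and the large subunit moved alike, from 2.87% and 3.71% of all FPKM in normal lungs to 3.70% and 4.75% in nanozyme lungs. In whole tissue, a change in the kinds of cells and a change in the message content per cell cannot be told apart.

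**Figure D1:**
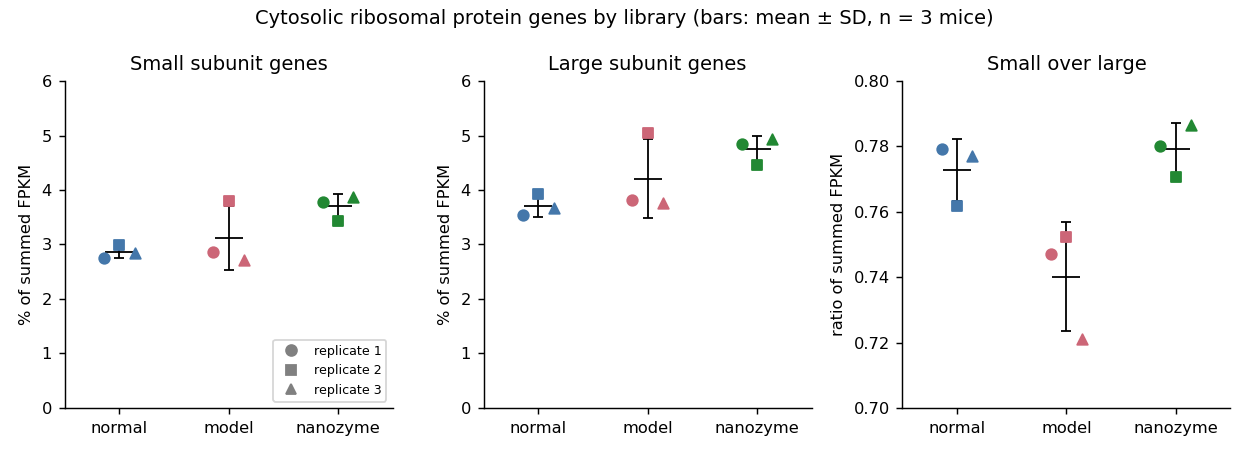
Percent of summed FPKM held by the 32 small subunit genes (left) and the 52 large subunit genes (middle), and the small over large ratio (right, axis from 0.70 to 0.80), with 1 point per library and bars for the mean ± SD of 3 mice. Nanozyme libraries lie above normal libraries in both subunits, model replicate 2 stands above the other model libraries, and the 3 model libraries have the lowest ratios.

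The share depends on the most abundant other genes. With the 100 most abundant genes that are not members left out of the sum, the members held 10.6% in normal, 10.4% in model and 12.1% in nanozyme lungs. The summed markers of club and ciliated cells, the secretory and ciliated cells of the airway, came to 68417 to 76851 FPKM in normal libraries, 6143 to 16834 in the model libraries and 19501 to 28873 in the nanozyme libraries. Other marker sums moved too. Macrophage and monocyte markers ran from 4048 to 4880 in normal, 8556 to 11800 in model and 6984 to 11512 in nanozyme libraries, and B and T lymphocyte markers from 68.1 to 93.8, 105 to 110 and 116 to 272. Proliferation markers summed to 82.8 to 85.9, 218 to 225 and 169 to 245, and red blood cell markers to 3528 to 4252, 173 to 319 and 131 to 790. Cardiac muscle markers summed to 144 to 857, 11.4 to 103 and 19.7 to 311, and 2 of those 12, Myl3 and Sln, were at 0 in some library, as was Ly6g of 12 neutrophil markers and, among 7 red cell markers, Slc4a1. The part of these cell types in the ribosomal protein levels was not tested.

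Between model and normal lungs most ribosomal protein genes differed little while much of the transcriptome changed. Tests used limma on log2(FPKM + 1) over all 14540 tested genes, with Benjamini-Hochberg adjusted p under 0.05 as the threshold, and all log2 changes below are on that scale. Of the 81 members, 2 rose (2.47%) and 0 fell, where 17.4% of all tested genes rose and 22.7% fell. At an unadjusted p under 0.05, 4 members (4.94%) were higher and 0 lower, beside 20.5% of all tested genes higher. The median log2 change of the members was 0.07, with 55 of 81 above 0, against −0.12 over all tested genes. The members were also closer together: the middle 50% of their changes spanned 0.26, against 0.75 for all tested genes, and 1 of 81 changed by at least 1 in either direction against 17.9% of all tested genes.

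**Figure D2:**
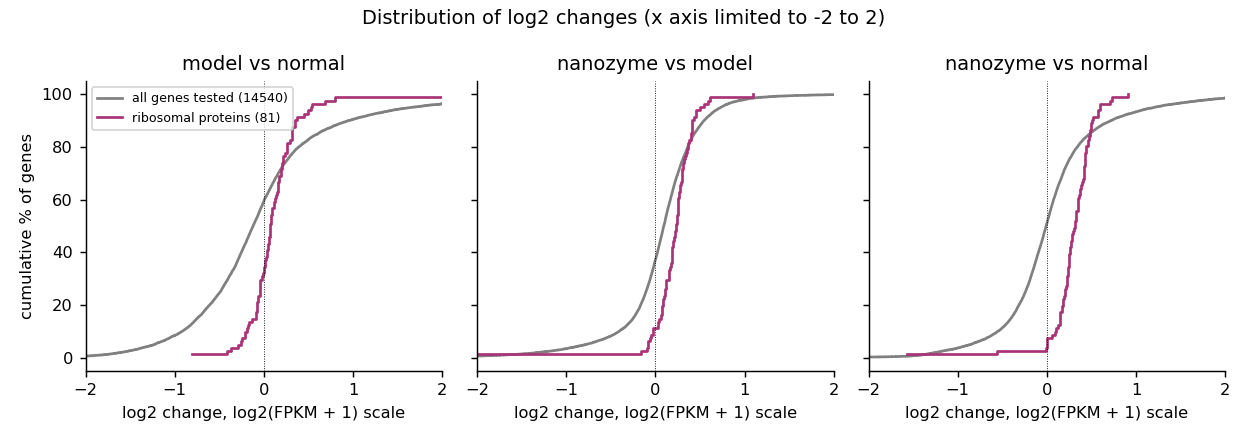
Cumulative percent of genes (y axis) by log2 change (x axis, log2(FPKM + 1) scale, limited to −2 to 2) for the 81 tested ribosomal protein genes and all 14540 tested genes in the 3 comparisons. The ribosomal protein curve is the steeper in each panel and crosses the middle at 0.07, 0.23 and 0.31, and in the panel of nanozyme against normal nearly all of it lies to the right of 0.

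Rps2 (chromosome 17, 24718116 to 24721929), a small subunit protein near the entry of the messenger RNA channel, was the member with the smallest p. Its FPKM was 324, 342 and 333 in normal, 419.5, 576 and 428 in model, and 491, 480.1 and 522 in nanozyme libraries. All model and all nanozyme values lay above all normal values. The log2 change of model against normal was 0.49 ± 0.14 (SE, n = 3 against 3, limma adjusted p = 0.0235).

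Rpl28 (chromosome 7, 4792874 to 4795066), a large subunit protein, was the other member that rose. Its FPKM was 164, 169 and 163 in normal, 211, 301 and 219 in model, and 206, 212 and 287 in nanozyme libraries, again with no overlap between normal and the others. The model against normal log2 change was 0.54 ± 0.17 (limma adjusted p = 0.0377). Both calls depended on the libraries: leaving out any 1 of the 3 normal replicates gave 0 called members, and Rpl28 was not called without model replicate 2 or without model replicate 3.

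Besides Rps2 and Rpl28, the model libraries all lay above the normal libraries for Rplp0, Rps26 and the paralog Rpl7l1, which makes 5 of 81 members against 23.5% of all tested genes, and 0 members lay wholly below. Rplp0, which anchors the stalk on the large subunit, had 647, 725 and 721 FPKM in normal, 785, 1058 and 873 in model, and 916, 902 and 927 in nanozyme libraries (model against normal 0.37 ± 0.14, limma adjusted p = 0.0671). Rps26, which lies at the exit of the messenger RNA channel, had 320.0, 336 and 284 in normal, 385, 594 and 342 in model, and 439, 436 and 445 in nanozyme libraries (0.45 ± 0.20, limma adjusted p = 0.0968). Neither passed the threshold, and in both genes model replicate 2 was the highest library.

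**Figure D3:**
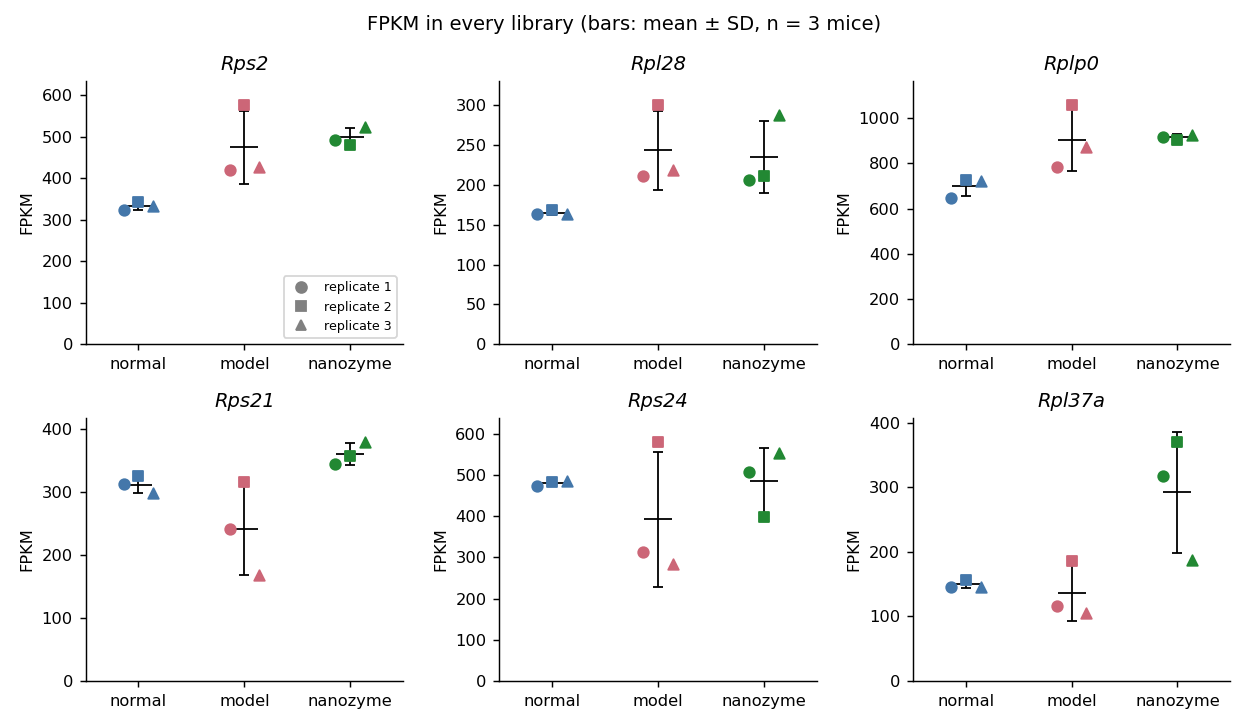
FPKM (y axis, from 0) of 6 members in the 9 libraries, with points by replicate and bars for the mean ± SD of 3 mice. Rps2, Rpl28 and Rplp0 have every normal library below every model and nanozyme library, Rps21 and Rps24 have model replicates 1 and 3 below the normal libraries while replicate 2 is not, and Rpl37a is highest in the nanozyme group.

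The comparison with normal moved with the model library left out. Without model replicate 3 the median log2 change of the members was 0.25, with 68 of 81 above 0, and without model replicate 1 it was 0.14. Without model replicate 2 the median log2 change of the members was −0.15, 1 member rose (Rps2) against 16.3% of all tested genes, and 7 fell against 17.4% of all tested genes. The 7 were Rps24, Rps21, Rps27 and Rps3a1 of the small subunit and Rpl22, Rpl9 and Rpl14 of the large subunit. Rps24, a protein needed to mature the small subunit RNA, had 473, 483 and 485 FPKM in normal and 312, 581 and 284 in model libraries, so that 2 of 3 model values lay far below normal and replicate 2 lay above it. Its log2 change was −0.37 ± 0.26 with all libraries (limma adjusted p = 0.285) and −0.69 ± 0.15 without model replicate 2 (limma adjusted p = 0.0140). Rps21, a small protein of the 40S subunit, had 312, 325 and 298 in normal and 242, 315 and 168 in model libraries, with changes of −0.41 ± 0.20 and −0.62 ± 0.15 (limma adjusted p = 0.138 and 0.0214).

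The direction of the model against normal median depended on the scaling between libraries. It was 0.15 with equal column sums and 0.20 with median-of-ratios scaling, but −0.13 with quantile normalization and −0.06 when libraries were rescaled without the 100 most abundant genes. Rps2 was called in each of these 4 except quantile normalization. The median over all tested genes was −0.05 with equal column sums and −0.01 with median-of-ratios scaling. It was −0.10 with quantile normalization and −0.23 without the 100 most abundant genes. The sign of the family's median thus differed among scalings, and of these 4 only quantile normalization put it below the median of all tested genes.

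Nanozyme lungs had more ribosomal protein message than normal lungs in most members, by a small amount. The median log2 change was 0.31 (1.24-fold), with 77 of 81 members above 0, while the median of all tested genes was −0.01. Members can move together within a library, as in model replicate 2, so counts of members are not independent observations. Only Rps2 passed the test, rising by 0.58 ± 0.14 (limma adjusted p = 0.0299), and 0 members fell, against 8.39% of all tested genes higher and 5.5% lower. At an unadjusted p under 0.05, 17 members (21.0%) were higher and 0 lower, beside 16.1% of all tested genes higher. The call of Rps2 was lost without any 1 of the normal replicates and without nanozyme replicate 1 or 3, and without nanozyme replicate 3 Rpl37a was the called member.

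In 57 of 81 members (70.4%) every nanozyme library lay above every normal library, against 22.1% of all tested genes, and in 0 members every nanozyme library lay below. The 57 comprised 24 of 32 small subunit and 33 of 49 large subunit members. Under other scalings the count was 62 with equal column sums, 62 with median-of-ratios scaling, 39 without the 100 most abundant genes and 23 with quantile normalization. The same held for 26.4%, 23.3%, 16.8% and 18.5% of all tested genes in that order. Without model replicate 2, which enters this comparison only through the shared estimate of spread, 21 members rose, against 9.22% of all tested genes. Without nanozyme replicate 2 the median was 0.32 and 1 member, Rps2, rose, against 9.31% of all tested genes. The number of members past the test thus moved with a library that is in neither group.

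Rps18 and Rpl32 are given as 2 members with an even level relative to the others, and both changed by more than the upper quartile of the members, 0.43. Rps18, a protein of the head of the small subunit, had 582, 653 and 608 FPKM in normal, 636, 895 and 571 in model, and 892, 831 and 852 in nanozyme libraries. Its nanozyme against normal log2 change was 0.48 ± 0.17 (limma adjusted p = 0.0975). Rpl32, of the large subunit, had 486, 557 and 528 in normal, 540.3, 824 and 506 in model, and 748, 709.7 and 771 in nanozyme libraries, a change of 0.51 ± 0.19 (limma adjusted p = 0.107). In both genes the nanozyme values stood above the normal values without overlap and model replicate 2 lay at the nanozyme level, while model replicates 1 and 3 lay near normal.

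Between nanozyme and model lungs no member passed the limma test with all libraries weighted equally. In that fit 0 of 81 members rose and 0 fell, as did 0% of all 14540 tested genes in each direction, and the smallest limma adjusted p was 0.181 among members and 0.126 among all genes. At an unadjusted p under 0.05, 8 members (9.88%) were higher and 0 lower, beside 13.4% of all tested genes higher. With sample weights estimated from the data 22 members rose, beside 1662 higher and 1372 lower of all 14540 tested genes. The estimation of those weights stopped before convergence. The members' median log2 change was 0.23, with 72 of 81 above 0, against 0.09 over all tested genes. In 6 members (7.41%) every nanozyme library lay above every model library, against 10.6% of all tested genes: Rpl36, Rpl37a, Rpl9, Rplp2, Rps19 and Rps21.

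Rpl37a, a small zinc-binding protein of the large subunit, had the smallest p among the members. Its FPKM was 146, 157 and 146 in normal, 117, 185 and 105 in model, and 318, 371 and 188 in nanozyme libraries, where replicate 3 lay just above the highest model library. The change was 1.09 ± 0.28 against model (limma adjusted p = 0.181) and 0.90 ± 0.28 against normal (limma adjusted p = 0.0650). Rps19, in which mutations are the most common cause of Diamond-Blackfan anemia, had 415, 602 and 495 in normal, 432, 539.6 and 339.9 in model, and 564, 557 and 620.3 in nanozyme libraries, so the nanozyme values cleared the model values and overlapped normal.

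The libraries that stand apart weighed on this comparison in different ways. Without nanozyme replicate 2, 12.5% of all tested genes rose and 0 of 81 members did, with 9 members (11.1%) at an unadjusted p under 0.05, beside 36.3% of all tested genes, and a smallest limma adjusted p of 0.0598. Without model replicate 2, 0 members and 0 of all tested genes were called although 67 of 81 members (82.7%) had an unadjusted p under 0.05, beside 15.3% of all tested genes. The median of 0.23 was 0.44 without model replicate 2, 0.15 without model replicate 1 and 0.09 without model replicate 3, and it was 0.12 with median-of-ratios scaling of all libraries. Without both libraries 50 of 81 members rose, against 12.8% of all tested genes. That last choice was made after the data were seen, and it leaves 2 mice in each of the groups compared. Values against model and against normal share the nanozyme libraries, and values of model and nanozyme against normal share the normal libraries, so they are set side by side only.

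Members with known work beyond the ribosome differed in their values. Rpl5 and Rpl11, which together with 5S RNA hold back the p53 regulator MDM2, had group means of 301, 290.4 and 335 FPKM and of 423, 549 and 564 FPKM in normal, model and nanozyme lungs. Their model against normal changes were −0.07 ± 0.16 and 0.35 ± 0.19, and neither passed the test. Rps6, the substrate of the S6 kinases, had 681 ± 34.7, 719 ± 165 and 766 ± 63.8 FPKM (SD, n = 3), with overlap of model and normal libraries. Rpsa, the laminin receptor precursor and a small subunit protein, had 447, 532 and 482 in normal, 561, 803 and 492 in model, and 651, 699 and 743 in nanozyme libraries, with a nanozyme against normal change of 0.52 ± 0.19 (limma adjusted p = 0.0973).

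The stalk proteins did not move as a unit. Rplp0 had every model library above every normal library, whereas Rplp1, which pairs with Rplp2 on it, had 1198, 1350.5 and 1257 FPKM in normal, 1106, 1389 and 854 in model, and 1352, 1422 and 1552 in nanozyme libraries. Rplp2 had 206, 239.9 and 228 in normal, 223, 244 and 171 in model, and 257, 286 and 298 in nanozyme libraries. Nanozyme values were the highest for Rplp1 and Rplp2, apart from model replicate 2 of Rplp1, and the model values of both overlapped normal. None of the Rplp1 and Rplp2 changes passed the test.

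Of the other members chosen for a known role, Rps3, Rps4x, Rps20, Rpl10, Rpl13a, Rpl26 and Rpl38, none passed the test in any comparison. Rpl38, which is needed for translation of certain Hox messages, had 217 ± 14, 230.3 ± 109 and 283 ± 34.3 FPKM in normal, model and nanozyme lungs. Rpl13a, which can leave the ribosome to silence inflammatory messages, ranged most within the model, from 669 in replicate 3 to 1453 in replicate 2. Rpl26, which can bind p53 messenger RNA, had means of 704, 768 and 837. The spread in the model group was larger than any of these differences between group means of model and normal.

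Levels relative to the family show which members part from the rest. Each member's FPKM was divided by the median of the members in the same library, which removes what all members share, such as the lift of model replicate 2. The SD of this relative log2 level over the 9 libraries had a median of 0.15, and it was under 0.2 in 57 of 81 members. In 27 members every model library lay below every normal library by this measure and in 7 above, against 34.7% and 13.4% of all tested genes on the same scale. The members' share of lower values, 27 of 81, is close to that background. Among those above were Rpl17, Rpl19, Rpl28, Rps2, Rps26 and Rpsa.

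With libraries rescaled to the family median and the same limma test, 5 members fell and 0 rose in model against normal, beside 18.4% of all tested genes lower. The members' median log2 change in that fit was still −0.13, with 23 of 81 above 0. The falls below therefore include an offset that most members had. Rps21 fell by 0.61 ± 0.17 (limma adjusted p = 0.0203) and Rps24 by 0.57 ± 0.17 (limma adjusted p = 0.0267). Rpl9, Rps14 and Rps3a1 fell by 0.49, 0.46 and 0.45 (limma adjusted p = 0.0339, 0.0327 and 0.0311). Without model replicate 2 the same rescaling, chosen after the data were seen, gave 8 lower members, these 5 together with Rpl14, Rpl22 and Rps27, and 1 higher, Rps2, beside 16.5% of all tested genes lower and 16% higher. Rps3a1, which sits near the messenger RNA exit, had 916, 1049 and 968 FPKM in normal, 755, 1045 and 705 in model, and 1015, 861 and 1067 in nanozyme libraries. Here too model replicates 1 and 3 were the low libraries, and replicate 2 was at the normal level while most other members were above it there. In nanozyme against normal the rescaled fit called 0 of 81 members, beside 494 higher and 1357 lower of all 14540 tested genes. The changes of Rps21, Rps24, Rpl9, Rps14 and Rps3a1 were below 0 there too, at −0.20, −0.40, −0.28, −0.21 and −0.41. The members' median in that comparison was −0.10, with 27 of 81 above 0, so the sign alone does not set these 5 apart from the family.

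The balance of the subunits was lowest in the model group. The summed FPKM of small over large subunit genes was 0.779, 0.762 and 0.777 in normal, 0.747, 0.752 and 0.721 in model, and 0.780, 0.771 and 0.787 in nanozyme libraries. The model values lay below all others without overlap, by a small margin, and model replicate 2 shared the low ratio although its levels were high. Without the 6 members that varied most the ratio was 0.748 to 0.765 in model libraries and 0.782 to 0.806 in the others. The ratio of the median FPKM of small over large subunit genes was 1.28 to 1.38 in model and 1.39 to 1.48 in the other libraries. No test was run on these sums.

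**Figure D4:**
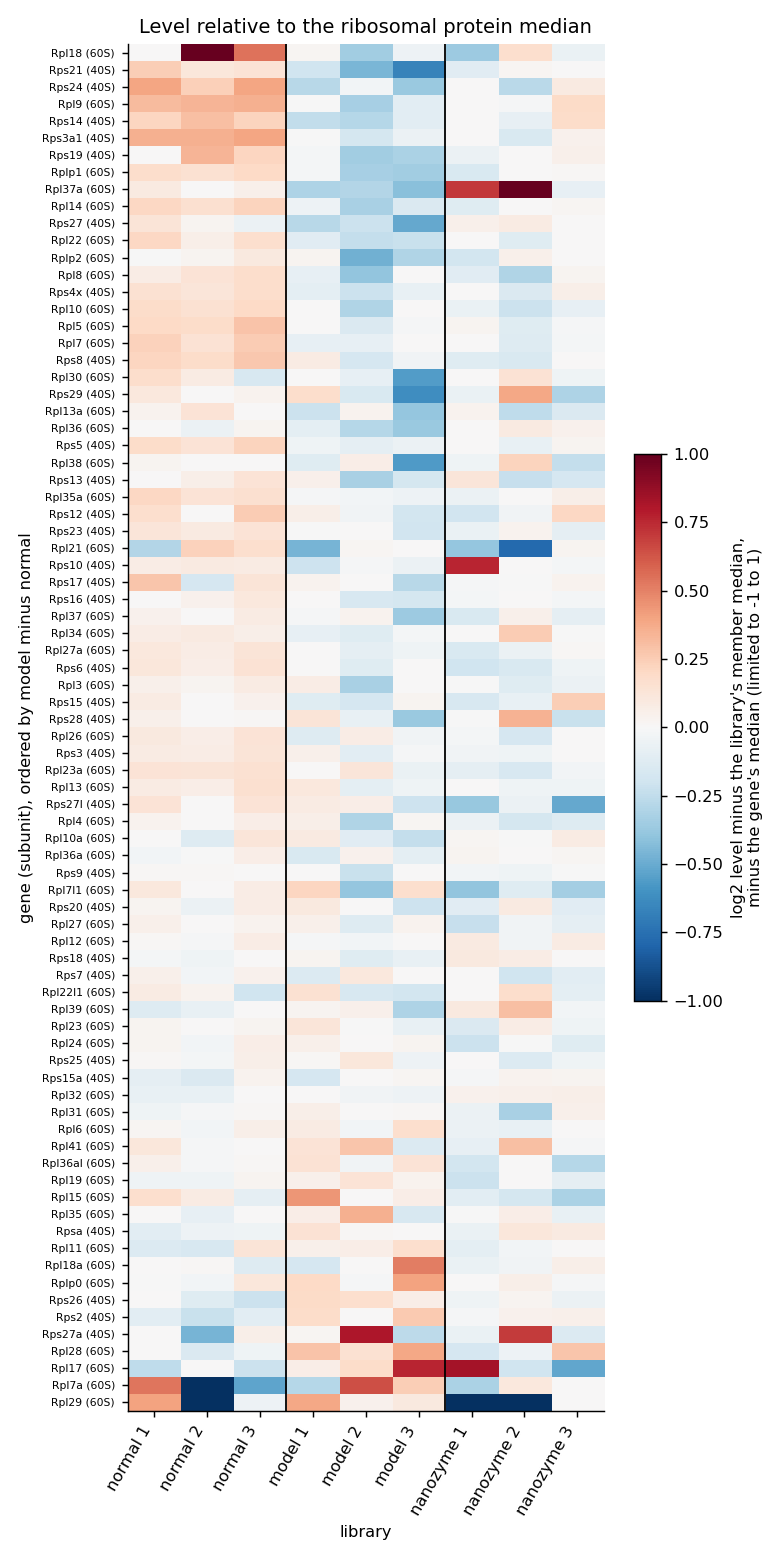
Level of 80 of the 81 tested members relative to the family median of its library (colour, log2, limited to −1 to 1, centred on the gene's own median), with members in rows ordered by model minus normal and libraries in columns. Near the top, Rps21, Rps24, Rpl9, Rps14 and Rps3a1 have every model library below every normal library. Near the bottom, Rps2, Rps26 and Rpl28 have every model library above every normal library. Some of their model cells are near white, such as Rps2 in replicate 2, because each row is centred on its own median. Single cells of strong colour mark members with an erratic library.

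Some members varied in single libraries against the rest of the family. The relative SD was at least 0.4 in 6 members: Rpl29 (2.80), Rpl18 (0.75), Rpl7a (0.57), Rpl37a (0.48), Rpl17 (0.46) and Rps27a (0.42). Rpl29, a heparin-binding protein of the large subunit, had 163, 2.38 and 122 FPKM in normal, 169.9, 209 and 135 in model, and 2.91, 2.72 and 178 in nanozyme libraries. It was thus at 2.38 to 2.91 in 3 libraries of 2 groups and at 122 to 209 in the other 6. Rpl18 had 610.0 in normal replicate 2 and 122 to 186 in the other libraries. The fit gave a wide error to such genes, 1.78 for the model against normal change of Rpl29, which was 2.05.

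Rpl7a, of the large subunit, had 299.6, 103 and 147 in normal, 179, 535 and 250.2 in model, and 235, 298 and 299 in nanozyme libraries. Rpl17 had its highest value, 408, in nanozyme replicate 1 and lay between 135 and 303 elsewhere. Rps27a, made as a fusion with ubiquitin, had 751 in model replicate 2 and 563 in nanozyme replicate 2, and 214 to 350.3 elsewhere. Many ribosomal protein genes have processed pseudogenes with near-identical sequence, and how the authors' counting shared reads among them is not given in the sources used here. GENCODE vM21 names 13 pseudogenes after Rpl7a, 11 after Rpl17, 11 after Rps2, 3 after Rpl29 and 2 after Rpl18, and the part of shared reads in these values was not tested.

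**Figure D5:**
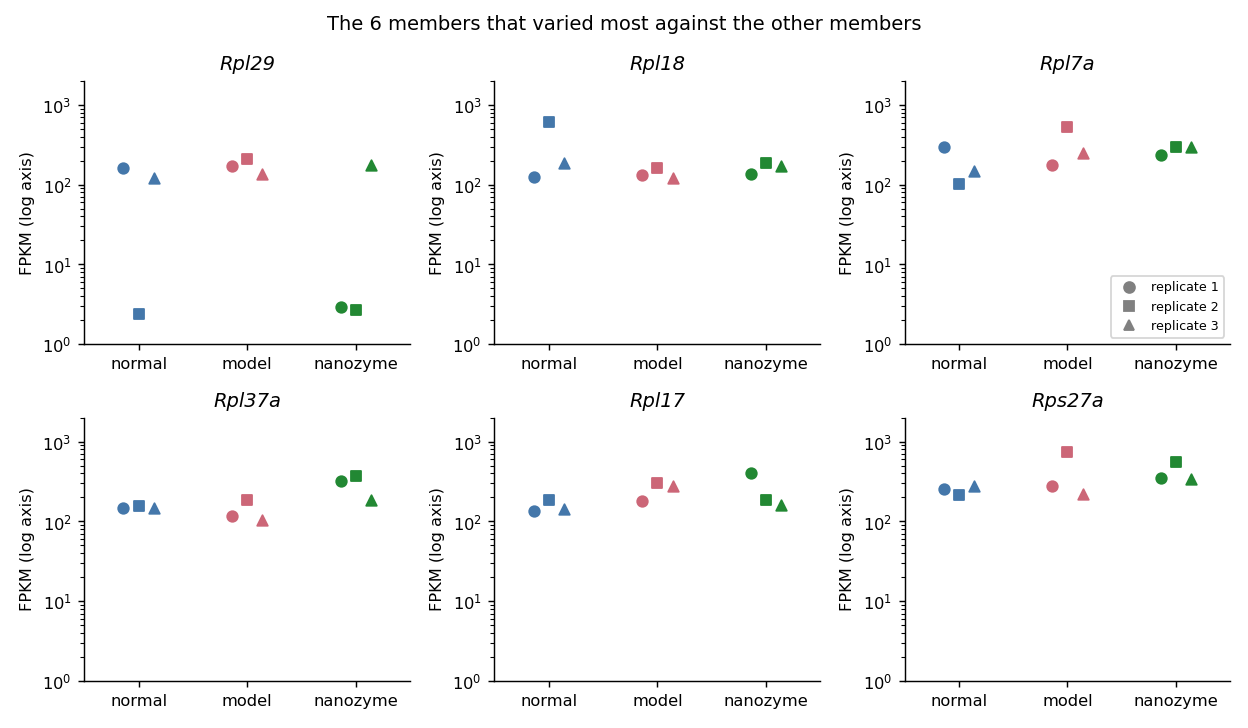
FPKM (y axis, log scale) of the 6 members that varied most against the other members, with 1 point per library. Rpl29 lies near 3 in normal replicate 2 and nanozyme replicates 1 and 2 and above 100 elsewhere, and Rpl18 is high in normal replicate 2 only.

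The paralogs were of 2 kinds in lung. Rps27l, Rpl22l1, Rpl36al and Rpl7l1 were tested, and Rpl3l, Rpl39l and Rpl10l were near or at 0. Rps27l, a copy that p53 can induce, had 115, 119.6 and 118 FPKM in normal, 117, 181 and 92.2 in model, and 114, 135 and 106 in nanozyme libraries, and the groups overlapped. Its main gene Rps27 had 527, 562 and 477, then 419.6, 685 and 345, then 708, 685 and 697, with nanozyme above normal without overlap. The nanozyme against normal change was −0.00 ± 0.22 for Rps27l and 0.42 ± 0.23 for Rps27, and neither passed the test.

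Rpl22l1, a copy of Rpl22 of nearly the same level, had 88.7, 97.9 and 74.7 in normal, 98.5, 124 and 75.2 in model, and 119, 127 and 113 in nanozyme libraries. Rpl22 had 89.4, 91.9 and 89.6, then 75.3, 108 and 67.6, then 109.9, 95.4 and 112. Both had every nanozyme library above every normal library. Rpl7l1, counted here as a paralog of Rpl7, was the steadiest member in FPKM, between 28.9 and 34 in all 9 libraries, while Rpl7 ran from 506 to 788.

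Rpl36al had 147 ± 7.77, 178 ± 37.2 and 172 ± 10.6 FPKM and its main gene Rpl36a 232 ± 17.6, 261 ± 93.9 and 308 ± 14.9 in normal, model and nanozyme lungs (SD, n = 3). Rpl3l, a copy used in heart and skeletal muscle, was at 3.33 FPKM in nanozyme replicate 1 and at 0.68 or less elsewhere, against 365 to 505 for Rpl3. The cardiac muscle markers summed to 311 in that library, below the 857 of normal replicate 1, where Rpl3l was 0.36. Rpl39l and Rpl10l are copies known from testis. Rpl39l did not exceed 0.71 FPKM, and Rpl10l was listed at 0 in all 9 libraries, beside 771 to 1028 for Rpl10.

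Genes that make, regulate or share control with ribosomal proteins are described by their counts and medians. Beside them, 17.4% of all tested genes rose and 22.7% fell in model against normal, and 8.39% and 5.5% in nanozyme against normal. In model against normal the share of a list that rose was above 17.4% only for the integrated stress response (45%) and p53 (20%) lists. It was 10% for the assembly factors and 5.13% for the mitochondrial ribosomal protein genes. Of the 78 mitochondrial ribosomal protein genes, which serve the separate ribosomes of mitochondria, 4 rose and 3 fell in model against normal (median 0.05), and 1 rose and 1 fell in nanozyme against normal (median 0.06). Mrpl27 rose by 0.42 ± 0.10 and Mrps6 fell by 0.86 ± 0.17 in model against normal (limma adjusted p = 0.0132 and 0.00627). In nanozyme against normal, 18 of 78 (23.1%) had every nanozyme library above every normal library, near the 22.1% of all tested genes. Of the 36 short nuclear genes of the respiratory chain, listed as other short abundant messages, 0 passed in any comparison, with 1 at an unadjusted p under 0.05 for model against normal and 0 for the other comparisons. Their sum was highest in model replicate 2 (5123 FPKM), lowest in model replicate 3 (3209) and 3639 to 4485 in the others, so the 2 libraries at the extremes were those of the ribosomal proteins.

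The 29 other TOP genes of translation, elongation and initiation factors and related messages, had medians of 0.10 in model against normal and 0.21 in nanozyme against normal. In the first comparison 3 rose and 1 fell, and in the second 1 rose and 0 fell. Vim, the intermediate filament of mesenchymal cells and a TOP message, rose by 0.83 ± 0.12 in model and by 0.997 ± 0.12 in nanozyme against normal (limma adjusted p = 0.00197 and 0.00206). Pabpc1, the poly(A) binding protein, rose by 0.55 ± 0.10 and Npm1, a nucleolar chaperone of ribosome assembly, by 0.66 ± 0.21 in model against normal, and the initiation factor Eif4a2 fell by 0.60 ± 0.10 (limma adjusted p = 0.00363, 0.0351 and 0.00303). In nanozyme against normal, 14 of the 29 (48.3%) had every nanozyme library above every normal library, against 22.1% of all tested genes. The same held for 9 of the 36 short respiratory chain genes (25%).

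Among 50 ribosome assembly factors, 5 rose and 1 fell in model against normal, and 0 passed in nanozyme against normal, with 8 at an unadjusted p under 0.05. Rcl1, which acts in small subunit assembly, had 7.23, 7.31 and 6.95 FPKM in normal and 12.3, 16.6 and 14.9 in model libraries (0.92 ± 0.17, limma adjusted p = 0.00448). Eif6, which keeps new large subunits from joining small ones too early, rose by 0.64 ± 0.14 (limma adjusted p = 0.00832), and the nucleolar proteins Gnl3 and Pes1 by 0.32 and 0.26 (limma adjusted p = 0.0316 and 0.0373). Of 15 genes of RNA polymerase I, which transcribes ribosomal RNA, 1 rose (Taf1d, 0.57 ± 0.16) and 1 fell (Taf1a, −0.82 ± 0.17) in model against normal (limma adjusted p = 0.0231 and 0.00640).

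Among 24 genes of mTORC1 and translation control, 4 rose and 1 fell in model against normal, and 2 rose and 0 fell in nanozyme against normal. Myc, a transcription factor that drives ribosome production, had 2.97, 2.35 and 2.95 FPKM in normal, 8.25, 5.61 and 5.86 in model, and 6.31, 4.19 and 4.45 in nanozyme libraries. It rose by 0.998 ± 0.18 and 0.66 ± 0.18 in the respective groups against normal (limma adjusted p = 0.00410 and 0.0466), and its normal libraries lay below all others. Eif4ebp1, a translation repressor under mTORC1, rose by 0.64 ± 0.13 in the model (limma adjusted p = 0.00725). Rps6kb1, the S6 kinase, changed by 0.00 ± 0.10, and Larp1, the TOP message binding protein, by 0.31 ± 0.16 (limma adjusted p = 0.986 and 0.145).

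The p53 and ribosome surveillance list had 3 higher and 5 lower of 15 tested in model against normal, with a median of −0.35. The 3 higher were Gadd45a at 1.61 ± 0.33, Bax at 0.68 ± 0.20 and Trp53 itself at 0.65 ± 0.12 (limma adjusted p = 0.00661, 0.0287 and 0.00435). The 5 lower genes are not reported here by name. Mdm2, the target of the Rpl5 and Rpl11 complex, changed by −0.04 ± 0.49 and the p53 target Cdkn1a by 0.50 ± 0.23 (limma adjusted p = 0.956 and 0.112). Among 20 genes of the integrated stress response, which lowers translation initiation, 9 rose and 1 fell, led in size by the cystine transporter Slc7a11, which had 0.36, 0.17 and 0.27 FPKM in normal and 12.3, 17.8 and 14.9 in model libraries (3.64 ± 0.70, limma adjusted p = 0.00499). Psat1 and Phgdh, enzymes of serine synthesis, rose by 1.16 ± 0.13 and 0.95 ± 0.15 (limma adjusted p = 0.000570 and 0.00224), while Atf4, the factor that drives the response and is controlled mainly in translation, changed by 0.02 ± 0.16 (limma adjusted p = 0.917). Of 22 genes of ribosome quality control and turnover, 1 rose (Nufip1, 0.40 ± 0.12) and 3 fell, Ascc2 by 0.78 ± 0.13, Usp10 by 0.64 ± 0.11 and Map3k20 by 0.52 ± 0.14 (limma adjusted p = 0.0323, 0.00290, 0.00302 and 0.0191). In nanozyme against model 0 genes of these lists passed the limma test with all libraries; at an unadjusted p under 0.05 there were 4 mitochondrial ribosomal protein genes, 4 other TOP genes, 5 assembly factors, 1 RNA polymerase I gene, 4 mTORC1, 7 p53, 5 integrated stress response, 3 quality control and 0 respiratory chain genes.

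The same libraries moved the counts of these lists. Beside the counts below, leaving out model replicate 2 gave 16.3% of all tested genes higher and 17.4% lower in model against normal. It gave 9.22% higher in nanozyme against normal. Without model replicate 2, model against normal gave 3 higher and 5 lower mitochondrial ribosomal protein genes (median −0.06), 2 higher and 1 lower other TOP genes (median −0.02), 2 higher and 1 lower assembly factors, 0 higher and 1 lower RNA polymerase I genes and 5 higher and 1 lower mTORC1 genes. It gave 2 higher and 4 lower genes of the p53 list, 9 higher and 0 lower of the integrated stress response, 0 higher and 2 lower of quality control and 0 higher and 4 lower of the short respiratory chain genes. In nanozyme against normal it gave 4 higher mitochondrial ribosomal protein genes, 4 higher and 1 lower other TOP genes, 3 higher mTORC1 genes and 1 higher respiratory chain gene. Without nanozyme replicate 2, nanozyme against model gave 9 lower and 1 higher genes of the integrated stress response, 5 lower assembly factors, 4 higher and 3 lower genes of the p53 list, 4 higher and 1 lower mTORC1 genes, 3 higher other TOP genes, 2 higher quality control genes and 1 higher mitochondrial ribosomal protein gene, beside 1814 higher and 1402 lower of all 14540 tested genes. In nanozyme against normal it gave 0 mitochondrial ribosomal protein genes and 1 higher and 2 lower of the p53 list, against 1 higher and 1 lower of each with all libraries.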

How the data were processed

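Lung RNA of 9 mice was homogenized, extracted with TRIzol and enriched for poly(A) messages before strand-marked libraries were made, per the labels' protocols. Reads were aligned with HISAT2 to GRCm38, per the submitters' processing notes; the counting tool, its handling of reads shared with pseudogenes and the annotation are not given in the sources used here. The authors deposited FPKM values, 1 column per library, with no counts, so counting error is unknown.

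Here genes with FPKM of at least 1 in at least 3 libraries (14540) were tested as log2(FPKM + 1) with limma 3.58.1 (R 4.3.3): 1 fit of 9 libraries, group as the only term, an intensity trend, Benjamini-Hochberg adjustment within each comparison, two-sided. The pseudocount slightly understates changes of low genes. With 3 against 3, an exact permutation p cannot go below 0.1, so none was run. The fit was also run on simulated data with independent noise for each gene. Those data hold no shift shared by a family, so they do not show how the fit handles one. Figures used matplotlib 3.10.9 (Python 3.11.15). Alternatives covered pseudocount, filter, scaling, fitted groups, trend, weights, block and left-out libraries.

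The members and lists were chosen with earlier results of these data known. Named members were those with a known role, an extra copy, extreme abundance or the smallest p-values; Rps18, Rps24, Rps26, Rpl7a, Rpl14, Rpl17, Rpl19, Rpl32 and Rpl36 were added after their values were seen. Some genes are counted but not reported here by name. A planned list of snoRNA host genes was not analysed here.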

Additional observations from a re-analysis of the deposited data

How the results depend on the processing

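In model against normal the number of members called higher, 2 as reported, was 1 without a filter, 5 with equal column sums, 0 with quantile normalization, 1 without the 100 most abundant genes, 0 after rescaling to the ribosomal protein median, 4 with sample weights (whose estimation stopped before convergence) and 0 to 4 with 1 library left out. Over all genes it was 2574 of 25526 without a filter. Of 14540 it was 2662, 2572, 2111, 1476 and 3261 under the next 5 alternatives in that order. The number of members called lower, 0 as reported, was 5, 2, 5 and 4 under quantile normalization, without the 100 most abundant genes, after rescaling to the ribosomal protein median and with sample weights, and 0 to 7 with 1 library left out. Under those 4 alternatives 3403, 4307, 2670 and 4459 of all 14540 tested genes were lower. In nanozyme against model the number of members called higher, 0 as reported, was 22 with sample weights, beside 1662 of all 14540 tested genes, and 0 to 0 with 1 library left out. In nanozyme against normal the number of members called higher, 1 as reported, was 0 without a filter, 11 with equal column sums, 2 with quantile normalization, 0 after rescaling to the ribosomal protein median, 17 with only the 2 groups compared, 51 with sample weights and 0 to 21 with 1 library left out. Over all genes it was 955 of 25526 without a filter. Of 14540 it was 1325, 1175, 494, 1118 and 3164 under the next 5 alternatives in that order. The members' median in this comparison, 0.31 as reported, was 0.16 with quantile normalization and −0.10 after rescaling to the ribosomal protein median, which removes a shared shift by construction. Without both model replicate 2 and nanozyme replicate 2, chosen after the data were seen, model against normal gave 1 higher and 12 lower, nanozyme against model 50 higher and nanozyme against normal 29 higher. All 14540 tested genes gave 2977 higher and 3684 lower, 1864 higher, and 1905 higher in that order. After rescaling to the ribosomal protein median without model replicate 2, also chosen then, the 3 comparisons gave 1 higher and 8 lower members, 1 higher and 1 lower, and 0 higher and 9 lower (median −0.10). All 14540 tested genes gave 2322 higher and 2406 lower, 18 higher and 2718 lower, and 848 higher and 6241 lower. The share held by the members was 10.6%, 10.4% and 12.1% in normal, model and nanozyme lungs without the 100 most abundant other genes. The cause of these differences was not tested.

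The replicate numbers did not pair the libraries: 2 of 9 correlations between same-numbered libraries were over 0.1 (range −0.33 to 0.23), and 0 libraries correlated best with their own number in both other groups. With a replicate block, 1 member was called higher in model against normal (Rps2), 0 in nanozyme against model and 1 in nanozyme against normal (Rpl37a). Single results were followed for the tested members named for a known role, an extra copy, extreme abundance or a small p-value. Under an alternative, 2464 results kept their side of the threshold and direction, 132 passed it anew, 26 lost it and 0 reversed a call. Only Rps2 and Rpl28 had calls as reported, so most results that kept their side simply stayed uncalled. All 26 losses were of the calls of Rps2 and Rpl28.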
